A study of Mus musculus with 38 samples.

Results

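CTCF sites shared by thymocytes and skin are thymocyte CTCF peaks that share at least 1 bp with a CTCF peak of skin. On chromosomes 1 to 19 and X, 16887 of the 20219 thymocyte CTCF peaks, or 83.5%, were such sites, out of 690407 peaks in the 11 lists analysed. The sites were chosen by the positions of the peaks in both CTCF lists, so their presence in both tissues is how they were selected and not a finding. They overlapped 16764 of the 31203 skin CTCF peaks, or 53.7%. The 3332 thymocyte peaks with no skin peak (thymocyte-only sites) and the 14439 skin peaks with no thymocyte peak (skin-only sites) are given where the shared sites are set against them.

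CTCF is a zinc finger protein that binds a long, directional DNA motif and stays on many of the same sites in most cell types. Together with cohesin it halts loop extrusion, so that pairs of CTCF motifs facing each other often mark the ends of chromatin loops, and it insulates genes from enhancers. SATB1 is a nuclear architecture protein, abundant in thymocytes, that binds base-unpairing regions (BURs), AT-rich stretches prone to unwinding.

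All the mice were C57BL/6 and wild-type for Satb1. CTCF and SATB1 were mapped by urea ChIP-seq, a protocol that spins fixed chromatin through a urea solution to strip loosely held protein and then immunoprecipitates it, in thymocytes (CTCF, 1 list; SATB1, 2 lists made with 4 and 2 µl of antibody) and in skin, as primary epidermal keratinocytes (CTCF, 1 list; SATB1, 2 lists), and SATB1 also in brain (2 lists). Standard ChIP-seq of SATB1 in thymocytes gave 2 lists, which differed in the antibody and in the sonication time (15 s for replicate 1 and 150 s for replicate 2), and the BUR list came from recombinant SATB1 bound to purified genomic DNA in vitro. The labels give the thymocyte urea SATB1 samples and standard replicate 2 as 13 days of age, the thymocyte CTCF sample and standard replicate 1 as both 13 days and 6 weeks, the skin samples as 13 days where the protocol has 5 days, and the brain samples as 5 and 6 weeks where the protocol has 13 days. The study's methods give newborn mice for skin, mice of 2 weeks for thymi and mice of 6 weeks or older for the brain (frontal cortex). The study describes its replicates as biological, from different animals, while the labels do not say which animals gave which list. Within each tissue the titles of the 2 urea SATB1 lists share the number of their sample code, and those of the 2 standard lists do not. The brain titles differ in PCR cycles (10 and 12) and the skin titles in sonication time (55 and 60 s). The lists held between 10611 and 232068 peaks on these chromosomes. They carry no read counts. The study calls the aligned read totals of its urea samples similar but the sources used here give no total per list, so the depth behind each is unknown.

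The DNA of shared sites held the CTCF core. The motif CCANNAGNNGGC, in which N is any base, was searched on both strands within 100 bp of the thymocyte summit. It was present at 7745 shared sites, or 45.9%, against 1.04% of all windows of 201 bp in the genome and 2.19% of windows 2 kb away from the same summits. Among the windows of 201 bp around protein-coding transcript starts, 1.59% held it. The stretches printed here, in NCBIM37 (mm9) coordinates and oriented so that the motif reads 5′ to 3′, come from shared sites named in the text and show how the core sits in unlike surroundings. The motif is in capitals.
Site 18199 bp from the Epm2aip1 start, chr9:111192499-111192558, minus strand: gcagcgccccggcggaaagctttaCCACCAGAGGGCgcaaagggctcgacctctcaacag
Site between genes on chromosome 1, chr1:183819063-183819122, plus strand: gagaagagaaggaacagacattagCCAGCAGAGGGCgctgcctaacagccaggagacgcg
Site at the Adprhl2 start, chr4:125998968-125999027, minus strand: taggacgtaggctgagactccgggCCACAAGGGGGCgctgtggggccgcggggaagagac
Site near Copz2, with urea SATB1, chr11:96728602-96728661, plus strand: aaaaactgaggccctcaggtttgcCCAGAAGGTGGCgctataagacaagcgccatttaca
Site in a Dok5 intron, with urea SATB1, chr2:170703150-170703209, plus strand: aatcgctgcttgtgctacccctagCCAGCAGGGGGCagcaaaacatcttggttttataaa
Site within 10 kb of Krt10, chr11:99241053-99241112, plus strand: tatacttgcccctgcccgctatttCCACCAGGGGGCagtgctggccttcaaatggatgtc
Site between Hoxd13 and Hoxd12, chr2:74511211-74511270, minus strand: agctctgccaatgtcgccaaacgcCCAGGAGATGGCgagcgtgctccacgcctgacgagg
Site at the Flt3l start by Rpl13a, chr7:52391842-52391901, minus strand: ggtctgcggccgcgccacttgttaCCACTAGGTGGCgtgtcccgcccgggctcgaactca

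Within the motif, the free letters were far from even. At motif position 4, counted from 1 at the 5′ end of the motif, C stood in 50.1% and G in 46.1% of the 7745 shared sites with the motif. At position 8, A stood in 50.8% and G in 48.2%, and at position 9, G stood in 62.2% and T in 33.6%. The most frequent form, CCAGAAGAGGGC, made up 12.9% of shared sites with the motif but 37.5% of the 128059 matches outside both CTCF lists, and it is a run that B2 short interspersed repeats carry. The form CCACCAGGGGGC, seen in the Krt10 stretch, went the other way, with 6.69% of shared sites with the motif and 0.127% of the matches outside. In all, 5.80% of the 140582 matches on these chromosomes lay in shared sites.

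The motif lay close to the summit and on either strand. Its median distance from the thymocyte summit was 17 bp, and 92.8% of the motifs lay within 50 bp. The motif was on the forward strand at 3803 sites and on the reverse strand at 3942 sites. Most sites had 1 match (7594 of 7745), and the most found at a single site was 4. With 1 fixed letter allowed to differ, 86.5% of shared sites held the motif, against 17.8% of windows 2 kb away, which leaves 2279 sites, or 13.5%, with neither form.

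The motif was more frequent at shared sites than at sites found in 1 tissue alone. It stood at 34.7% of thymocyte-only sites and 18.3% of skin-only sites, against 45.9% of shared sites. When the thymocyte CTCF peaks were put into 10 bins of equal number by fold enrichment (summit signal over the local background, as a ratio), the share at shared sites ranged from 39.9% to 50.4%, and it was higher than at thymocyte-only sites in each of the 10 bins. In the bin with the highest enrichment the motif stood at 40.5% of shared and 12.1% of thymocyte-only sites, with 58 thymocyte-only sites in that bin. Only 1 CTCF list per tissue was used, and a second thymocyte CTCF sample of the series was left out. These differences thus have no replicate check and were not tested.

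**Figure D1:**
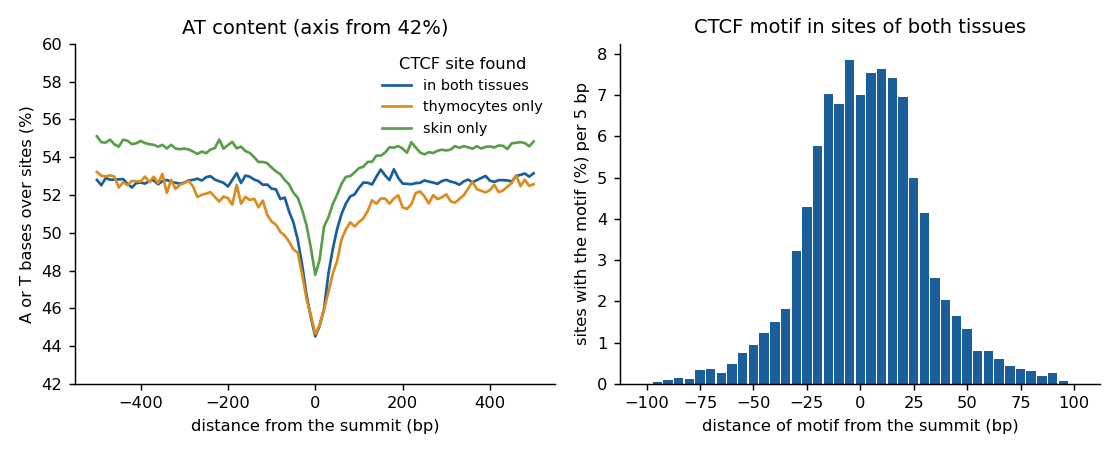
AT content and the CTCF motif around the summits. Left, the percentage of sites with A or T at each distance from the summit (averaged over 11 bp; axis from 42%) for shared, thymocyte-only and skin-only sites; shared sites dip to 44.5% at the summit. Right, the percentage of the 7745 shared sites with the motif whose motif lies at each distance from the thymocyte summit, in steps of 5 bp, with most of them near 0.

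Shared sites were less AT-rich than the genome. The median AT content of the 201 bp around the summit was 50.2%, with 5% of sites under 33.8% and 5% over 61.7%, while the genome as a whole had 58.2%. Windows 2 kb away had a median of 53.2%. Averaged over 11 bp, AT content was 52.8% at 500 bp before the summit in genome coordinates and 44.5% at the summit. Thymocyte-only sites had the same median of 50.2%, and skin-only sites had 52.2%. The urea SATB1 peaks of thymocytes had a median of 70.6% in both replicates and BURs of 73.1%, and 8.84% of shared sites exceeded 60%.

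CTCF enrichment at shared sites is given as a description, since both CTCF lists chose them. Thymocyte fold enrichment had a median of 8.27 (5% to 95% of sites, 5.09 to 14.7) and a maximum of 56.1. The strongest overlapping skin peak had a median of 6.96 (3.75 to 11.9) and a maximum of 45.3. The 2 values went together across sites with a Spearman rho of 0.52 over 16887 sites, which share base composition and the peak caller's background. Thymocyte-only sites had a median thymocyte enrichment of 6.10, and skin-only sites a median skin enrichment of 4.69. The summits of the paired peaks lay a median of 27 bp apart, and 77.5% lay within 50 bp of each other.

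Few sites were close to the limit of the rule. The smallest overlap was 6 bp, at chr12:116876983-116877156, with an enrichment of 4.82 in thymocytes and 3.06 in skin. The next smallest was 7 bp, at chr8:63853297-63853508, with 7.39 and 4.02. Just outside, a thymocyte peak at chr4:155400113-155400286 with an enrichment of 6.10 stopped 17 bp short of a skin peak with 5.09, and the smallest gap of all was 3 bp. Only 17 shared sites overlapped by less than 50 bp, and 19 thymocyte-only sites lay within 100 bp of a skin peak. The median thymocyte-only site lay 13.8 kb from the nearest skin peak.

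The share of thymocyte CTCF peaks found in skin rose with their enrichment. Both CTCF lists set the rule, so this describes how the sites were selected and was not tested. A peak missing from the skin list cannot be told apart from one below detection. It was 59.4% in the bin with the lowest thymocyte enrichment, 85.1% in the fifth bin and 97.1% in the highest. It was much the same across autosomes, from 81.5% on chromosome 10 to 87.2% on chromosome 4, and was 76.6% on the X chromosome.

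Some places had a peak in all 11 lists, that is, with every antibody, in every tissue and in the in vitro map. There were 57 such regions, with 15798 bp in all, and 52 shared sites lay in them, 12 on chromosome 9. The largest group of shared sites less than 10 kb from the next, 10 sites within 22.7 kb near the start of chromosome 9, is in a stretch where the annotation has predicted genes such as Gm10718. The values for SATB1 are given with and without these 52 sites where they differ.

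Standard SATB1 peaks of thymocytes lay on many shared sites. Of the 16887 sites, 9058 shared at least 1 bp with a peak of standard replicate 1 and 3962 with one of replicate 2, or 53.6% and 23.5%. Among all thymocyte CTCF peaks, 83.5% of which are shared sites, the corresponding shares were 52.8% and 23.8%. The 2 sets hold mostly the same peaks, so their shares are bound to be close. A site had a peak in both standard lists at 3698 positions (21.9%) and in neither at 7565 (44.8%). The mean over the 2 lists was 38.6% ± 21.3 (SD, n = 2), and the lists themselves held 47830 and 26876 peaks.

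Urea SATB1 peaks of thymocytes lay on few shared sites. Replicate 1 overlapped 215 sites and replicate 2 overlapped 205, or 1.27% and 1.21%, where all thymocyte CTCF peaks had 1.22% and 1.17%. The mean was 1.24% ± 0.042 (SD, n = 2). The sample codes of these 2 lists share a number, so this SD may not hold the spread between separate preparations. The test below takes the lists as independent. Both replicates had a peak at 177 sites, of which 52 lay in the regions called in all lists, and without those the shares were 0.968% and 0.909%. The values of the 2 standard lists and the 2 urea lists did not overlap. Their means differed by 37.3 percentage points, with a two-sided exact permutation p of 0.333 (0.5 after Benjamini-Hochberg adjustment over 3 comparisons), the smallest that 2 lists against 2 can give, so the design cannot reach 0.05. The difference between the protocols cannot be told apart from the sonication times and, for standard replicate 1, from the antibody and the age of 6 weeks in its title.

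The urea lists of skin and brain and the BURs also touched few shared sites. The skin lists had a peak at 1.11% and 1.10% of sites (background of all thymocyte CTCF peaks, 0.969% and 0.955%). The brain lists had 1.84% and 1.64% (background, 1.78% and 1.61%), with 117870 and 109063 peaks in the lists. BURs overlapped 433 shared sites, or 2.56% (background, 2.57%), and 228 of these sites had no urea SATB1 peak in any tissue. At 43.6% of shared sites there was neither a SATB1 peak of any list nor a BUR.

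**Figure D2:**
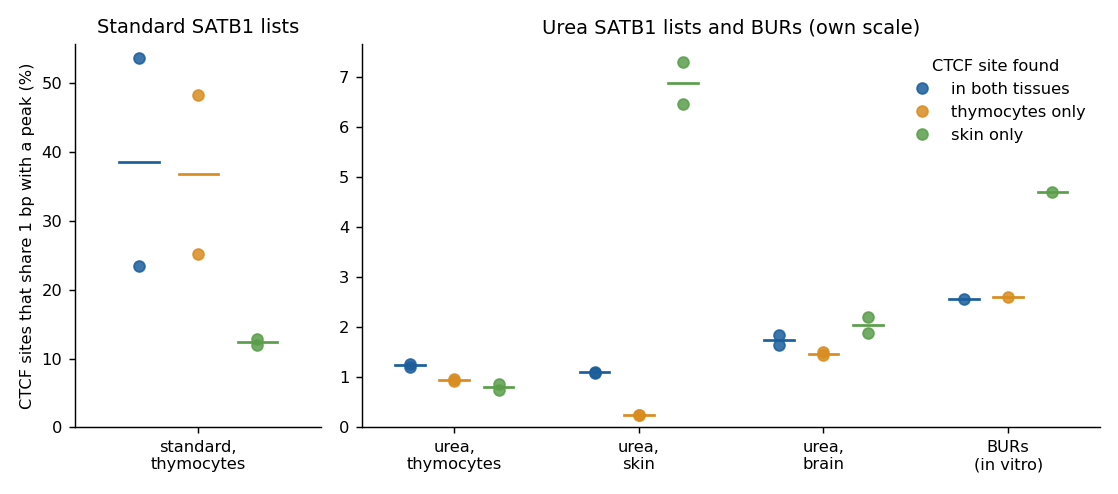
The percentage of CTCF sites that share at least 1 bp with a peak of each SATB1 list (points, 2 lists per group; short lines, their mean) or with a BUR (1 list), for shared, thymocyte-only and skin-only sites. The 2 standard lists stand at 53.6% and 23.5% of shared sites, and the thymocyte urea lists at 1.27% and 1.21%, on a separate scale.

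Around the shared sites, standard SATB1 was centred on CTCF. The share of sites whose exact summit position lay inside a standard peak was 52.1% and 21.2%, and the mean from 1 to 3 kb away was 1.76% and 0.82%, a ratio of 29.7 and 25.8. Outside the regions called in all lists, thymocyte urea SATB1 covered 0.665% and 0.636% of summits against 0.341% and 0.322% of the flanks, ratios of 1.95 and 1.98. Skin urea SATB1 had ratios of 4.20 and 4.57, and brain urea SATB1 of 1.01 and 1.02. BURs were fewer at the summit than beside it, with 0.98% of summits and 1.85% of flanking positions, a ratio of 0.53. Within 10 kb, 17.2% and 16.1% of the shared sites had a thymocyte urea peak and 53.0% had a BUR.

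**Figure D3:**
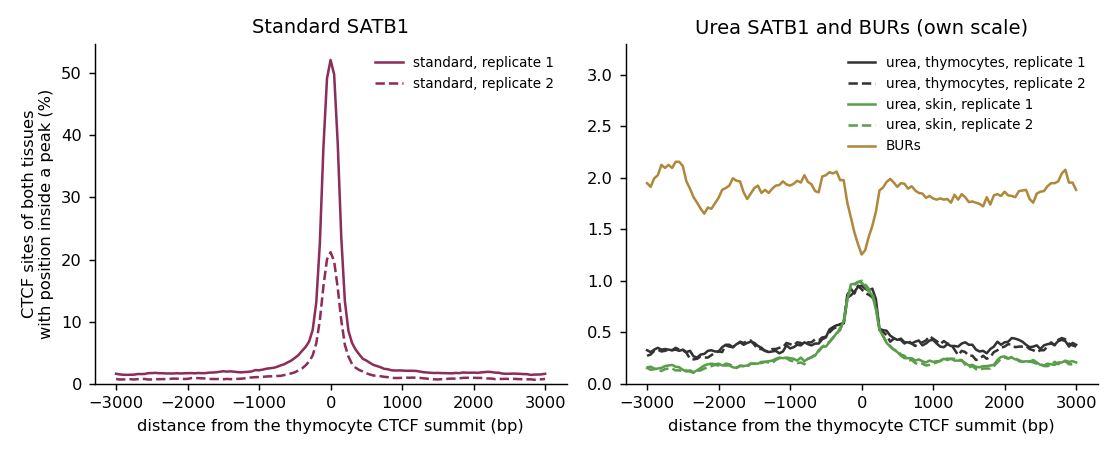
The percentage of the 16887 shared sites that have a peak over a given position, plotted every 50 bp out to 3 kb on either side of the thymocyte CTCF summit. Left, both standard SATB1 lists rise to 52.1% and 21.2% at the summit; right, on its own scale, thymocyte and skin urea SATB1 stay under 1.1% and BURs dip at the summit (all sites, regions called in every list included).

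Taken over all places, shared and thymocyte-only sites differed little in SATB1. Standard replicate 1 was on 53.6% of shared and 48.3% of thymocyte-only sites, and replicate 2 on 23.5% and 25.3%. Thymocyte urea replicate 1 was on 1.27% and 0.93%, and replicate 2 on 1.21% and 0.96%. The mean difference over the 4 lists was 1.02 percentage points, higher at shared sites in 3 of 4 lists, with a two-sided exact sign-flip permutation p of 0.625 (adjusted 0.625), where the smallest possible is 0.125. The shared sites have higher thymocyte CTCF enrichment, and when sites were set against each other within 10 bins of that enrichment the mean difference turned to -5.70 percentage points, lower at shared sites in all 4 lists (exact p = 0.125). In those bins the differences were -9.12 and -13.3 for the standard lists and -0.036 and -0.31 for the urea lists. Within introns, standard SATB1 was on 46.0% and 15.6% of shared and 32.8% and 12.2% of thymocyte-only sites. Between genes the shares were 52.5% and 20.7% against 41.7% and 19.9%, and in other exons 52.3% and 19.8% against 38.9% and 13.8%. Within 1 kb of a protein-coding start they were 85.3% and 63.5% against 88.5% and 59.4%. Such sites made up 21.7% of thymocyte-only and 11.2% of shared sites, and the part of place was not tested.

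**Figure D4:**
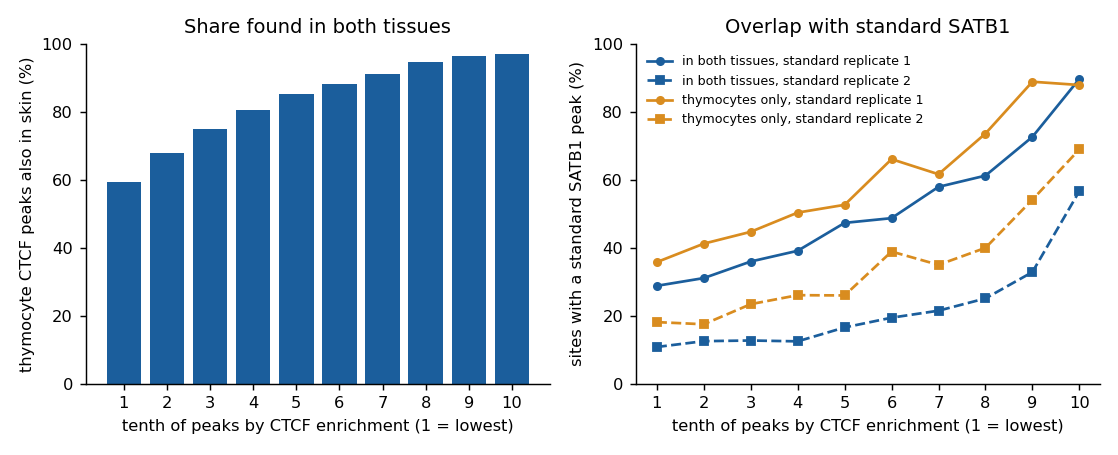
Thymocyte CTCF peaks in 10 bins of equal number by fold enrichment. Left, the percentage also found in skin, from 59.4% to 97.1%; right, the percentage with a peak of each standard SATB1 replicate, for shared and thymocyte-only sites, where the thymocyte-only sites lie above the shared ones in most bins and 58 of them are in the highest bin.

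Against skin-only sites the standard lists differed more. By the rule, skin-only sites have no thymocyte CTCF peak, and the SATB1 lists compared are of thymocytes. The comparison thus sets sites with thymocyte CTCF against sites without it and says nothing about presence in both tissues. Thymocyte-only sites had standard shares of 48.3% and 25.3%. Standard replicate 1 was on 12.9% and replicate 2 on 11.9% of skin-only sites, and thymocyte urea SATB1 on 0.873% and 0.748%. The mean difference from the shared sites was 13.3 percentage points, higher at shared sites in 4 of 4 lists, with a two-sided exact sign-flip permutation p of 0.125 (adjusted 0.375), the smallest that 4 lists allow. Standard replicate 1 contributed most, with a difference of 40.7 points against 11.6 for replicate 2 and 0.40 and 0.466 for the urea lists, and without it the mean was 4.14. Within bins of skin CTCF enrichment the mean was 10.5 percentage points, with 37.1 and 3.91 for the standard and 0.45 and 0.542 for the urea lists. Skin urea SATB1 went the other way, with 7.30% and 6.45% of skin-only sites against 1.11% and 1.10% of shared sites. That comparison was not tested.

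The standard SATB1 share of shared sites climbed with thymocyte CTCF enrichment. In the lowest bin, standard replicate 1 was on 28.8% and replicate 2 on 10.8% of shared sites. In the highest bin the shares were 89.7% and 56.7%. Where a peak of both kinds was present, the fold enrichments went together only weakly, with a Spearman rho of 0.32 over 9006 sites for standard replicate 1 and 0.24 over 3910 for replicate 2. The skin urea SATB1 enrichment went with skin CTCF enrichment at a rho of 0.77 and 0.76, over 136 and 133 sites. These correlations are across sites of the same libraries and are descriptions.

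Urea SATB1 was more frequent at shared sites with neither form of the motif. Outside the regions called in all lists, 2235 sites had neither the motif nor its form with 1 letter free, and thymocyte urea SATB1 lay on 3.62% and 3.27% of them. At the 7742 sites with the motif it was 0.53% and 0.555%, and at the 6858 sites that held it only with 1 letter free it was 0.598% and 0.54%, so those sites were near the ones with the full motif. For skin urea SATB1 the shares were 4.61% in both lists at sites with neither form, 0.181% and 0.168% with the motif, and 0.277% and 0.248% with 1 letter free. Standard SATB1 was on 62.8% and 34.9% of the sites with neither form, on 49.3% and 19.2% of those with the motif and on 55.2% and 23.9% of those with 1 letter free. Median thymocyte CTCF enrichment was 8.03 with neither form and 8.27 with the motif. The sites with neither form were also more often near a protein-coding start, at 23.0% against 6.26% with the motif, and the part of this in the SATB1 values was not tested.

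Shared sites were found near gene starts, in genes and between them. Of the 16887 summits, 1899 (11.2%) lay within 1 kb of a protein-coding transcript start, 970 (5.74%) in another exon, 6582 (39.0%) in an intron and 7436 (44.0%) between genes. Of genome positions taken every 1 kb, 2.31% lay within 1 kb of a start and 58.1% between genes. Thymocyte-only sites were more often near a start, at 21.7%, and skin-only sites less often, at 8.39%. Standard SATB1 peaks themselves lay near a start in 27.8% and 35.7% of cases, and thymocyte urea peaks in 1.08% and 1.12%.

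Sites near a start had the higher SATB1 share in the standard lists. Standard replicate 1 was on 85.3% of the 1899 shared sites near a start, on 52.3% in exons, on 46.0% in introns and on 52.5% between genes, and replicate 2 on 63.5%, 19.8%, 15.6% and 20.7%. In each of the 10 bins of thymocyte CTCF enrichment, both standard lists were on a larger share of shared sites near a start than elsewhere. In the fifth bin, for instance, the shares were 84.6% and 47.7% near a start and 44.3% and 14.0% elsewhere. Thymocyte urea SATB1 was on 1.32% and 1.21% of the sites near a start and on 1.43% and 1.39% of those between genes. Sites near a start were also the least AT-rich, with a median of 39.3% against 50.7% between genes, and 25.5% of them held the motif against 48.5%.

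Along the chromosomes, shared sites went with gene density only in part. Chromosome 11, among the most gene-dense, had 11.8 shared sites per Mb of sequence and chromosome 19 had 9.92, while the X chromosome had 2.09. Chromosome 7, the most gene-dense with 14.6 protein-coding genes per Mb, had 8.37. Per protein-coding gene the range was 0.363 on X to 0.946 on chromosome 15, with 0.573 on chromosome 7, the lowest autosome. On the X chromosome the shared sites also had the lowest share with standard SATB1 (37.6% and 15.7%, where the autosomes had at least 48.2% and 21.2%) and the lowest median enrichment, 7.13 in thymocytes and 5.62 in skin.

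In 2565 bins of 1 Mb, the number of shared sites had a Spearman rho of 0.74 with protein-coding gene starts, -0.83 with AT content and -0.72 with the number of BURs. It was -0.62 and -0.61 with thymocyte urea SATB1 peaks and 0.88 and 0.86 with standard SATB1 peaks. The bins share base composition and gene density, so these are descriptions. The densest bin, chr10:80000001-81000000, held 57 shared sites, 59 gene starts, 14 BURs, 6 urea peaks in each replicate and 102 and 63 standard peaks. The 618 bins with no shared site had a median of 1 gene start, 152 BURs and 27 and 23 urea peaks, and the 687 bins with 10 or more sites had 15 starts, 41 BURs and 8 and 8 urea peaks.

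Neighbouring shared sites lay a median of 43.1 kb apart, with the middle 50% of gaps between 14.7 and 114.0 kb. For skin-only sites the median was 93.9 kb and for thymocyte-only sites 242 kb, which are fewer, so the distances are not comparable as such. Most shared sites, 11255 of 16887, had no other within 10 kb, and there were 1953 groups of 2 and 526 of 3 or more. A group of 7 spanned 41.5 kb over Sfi1, a centrosome gene, and another of 7 spanned 30.8 kb around Trpv4, a cation channel gene. The widest gap, 16.4 Mb on the X chromosome, held 36 protein-coding genes, 2110 BURs and 380 and 313 thymocyte urea peaks but 3 thymocyte and 26 skin CTCF peaks.

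The orientation of neighbouring motifs changed with distance. There were 3529 pairs of adjacent shared sites that both held the motif. Of these, 884 (25.0%) were convergent (motifs facing each other), 923 (26.2%) divergent and 1722 (48.8%) on the same strand. Of pairs under 10 kb apart, 16.4% were convergent and 30.6% divergent, whereas of pairs over 200 kb apart 34.9% were convergent and 16.2% divergent. The median gap was 70.6 kb for convergent and 29.7 kb for divergent pairs. The pairs come from 1 set of sites and the change was not tested.

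**Figure D5:**
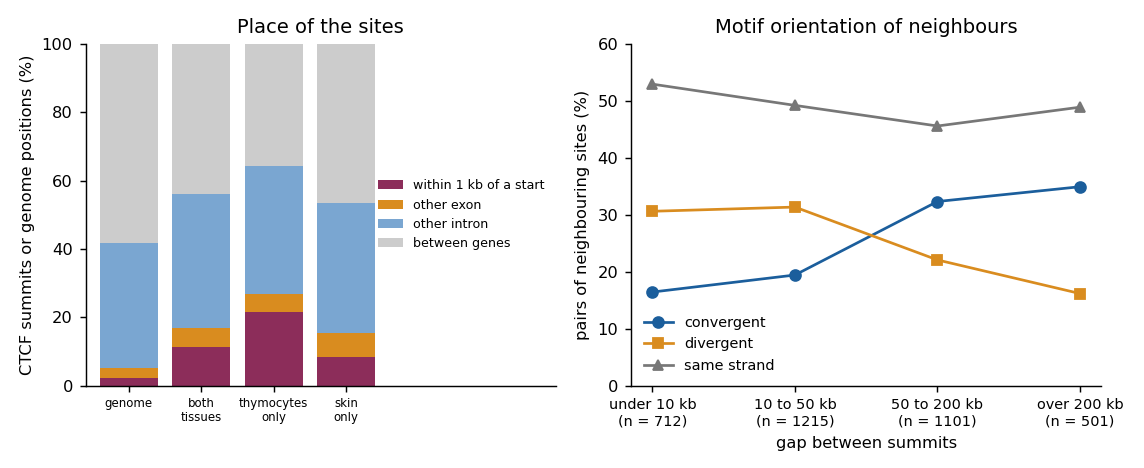
Left, the percentage of summits (or genome positions) within 1 kb of a protein-coding start, in another exon, in another intron or between genes, with 11.2% of shared sites near a start. Right, the orientation of the motifs in 3529 pairs of adjacent shared sites by the gap between their summits; convergent pairs go from 16.4% to 34.9% and divergent pairs from 30.6% to 16.2%.

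The 10 shared sites with the highest geometric mean of both enrichments, outside the regions called in all lists, had means from 23.6 to 32.4, and 5 of them lay within 1 kb of a protein-coding start. The first, chr19:61275445-61275848, lay between genes with an enrichment of 37.1 in thymocytes and 28.4 in skin, and it had a peak in all 8 SATB1 lists and no BUR. The second, chr1:197067644-197068085, had 39.0 and 26.8 and a peak in both standard, both thymocyte urea and both skin urea lists. Both sites were thus called with CTCF and with SATB1 in thymocytes and in skin, and neither held the motif. Whether the input samples also stand out at these sites was not tested. The third, chr2:29474962-29475324, 81 bp from a start of Rapgef1, a guanine nucleotide exchange factor gene, had 39.5 and 22.7 and no urea SATB1 peak. Others stood at the starts of Exosc8, an exosome subunit (31.0 and 22.4), Vps36, an endosomal sorting protein (30.6 and 21.5), and Gbas (33.9 and 18.3), and at the Adprhl2 start shown above. All 10 had a peak in both standard SATB1 lists and 4 held the motif. Of the 1000 sites with the highest means, 31.2% were near a start and 63.0% had both standard peaks, against 10.4% and 10.3% of the 1000 lowest.

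At the 5 sites where urea SATB1 of thymocytes was highest, thymocyte CTCF enrichment ranged from 4.75 to 35.3. At chr7:84086544-84086755, between genes, urea SATB1 enrichment was 30.9 and 33.2 and CTCF enrichment 6.10 in thymocytes and 7.63 in skin, on a BUR with an enrichment of 13.4. In an intron of Ift80, a cilium transport gene, at chr3:68768741-68768958, urea SATB1 was 30.9 and 30.3 and CTCF 7.85 and 4.15. All 5 sites had a urea SATB1 peak in both brain lists, and 4 of them in both skin lists. The site near Copz2 shown above (chr11:96728527-96728792) had urea SATB1 of 30.3 and 29.6 with CTCF of 11.6 and 8.27. At chr14:46432485-46432665, CTCF was 35.3 in thymocytes and 5.09 in skin, with urea SATB1 of 28.5 and 27.8. The fifth, in an intron of Dok5 (chr2:170703139-170703346), had urea SATB1 of 27.9 and 25.8 and CTCF of 4.75 and 6.43. Of these 5 sites, 4 lay on a BUR, 2 held the motif and 1 had a peak in both standard lists. They only narrowly escaped being called in every list. The first and second sites and the one near Copz2 lacked a peak in 1 standard list alone. The chr14 site lacked only a BUR and a peak in skin urea replicate 1, and the Dok5 site only the standard peaks.

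The 5 sites with the highest standard SATB1 enrichment held neither the motif nor a BUR. At chr4:88286884-88287237, 3269 bp from the start of the interferon gene Ifna13, standard SATB1 was 47.2 and 36.1 and CTCF 13.7 in thymocytes and 32.9 in skin. At chr8:3754526-3754700, 5587 bp from Cd209a, a lectin gene, the standard values were 44.5 and 27.8 and CTCF 6.74 and 16.7. The other 3 lay between genes 76175 bp from a start of Ptprj, in Il1rapl1 and in Camk1d, with standard SATB1 from 39.2 to 42.1 in replicate 1. All 5 also had a peak in both skin urea SATB1 lists.

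Genes were taken with 10 kb on each side, and 10426 of 22350 protein-coding genes (46.6%) had a shared site. Of 24 genes of chromatin architecture, 17 had one and 7 did not. Stag1, a cohesin subunit, had a site 17 bp from its start with CTCF of 19.3 in thymocytes and 12.5 in skin and both standard peaks. Pds5b, a cohesin regulator, had 4 sites, the strongest with 15.6 and 13.8 at its start. The strongest site of the list, beside Cbx5, which encodes a heterochromatin protein, had 22.5 and 16.9. Ctcf itself had 3 sites, and Satb1 had 1 together with 10 skin-only sites; these genes were singled out after their values were seen. The cohesin subunit genes Rad21 and Smc1a, chosen likewise, had none. None of the 35 sites of this list, nor any site of the 5 lists that follow, had a thymocyte urea SATB1 peak, where 1.02% and 0.968% of shared sites at all protein-coding genes did.

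Of 25 thymocyte genes, 16 had a shared site, 27 sites in all beside 10 thymocyte-only and 7 skin-only sites. Cd2, a T cell adhesion molecule, had a site 7784 bp from its start with CTCF of 14.7 and 11.9, and Bcl11b, a factor needed for commitment to the T lineage, had an intronic site with 14.3 and 12.2. Zbtb7b, the factor that directs CD4 lineage choice, had a site in an exon with 14.7 and 9.11, and Runx1 an intronic one with 12.9 and 9.07. Standard SATB1 was on 70.4% and 44.4% of the 27 sites and on 68.6% and 40.0% of the 35 sites of the chromatin architecture genes, where at all protein-coding genes it was on 54.3% and 24.6%. The other lists ranged from 52.0% to 70.0% in replicate 1 and from 14.3% to 40.0% in replicate 2.

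Of 25 epidermal genes, 9 had a shared site, with 17 sites beside 2 thymocyte-only and 23 skin-only sites. The site near Krt10, a keratin of differentiated epidermis, lay 4844 bp from the start of Krt28 with CTCF of 12.3 in thymocytes and 9.73 in skin, and it lay on a BUR. Sfn, which encodes a cell cycle regulator of stratified epithelia, had a site at its start with 9.29 and 10.1. Itga6 and Col17a1, hemidesmosome genes, had intronic sites with 10.9 and 7.63 and with 8.15 and 9.64. The sites of Sfn and Col17a1 had no SATB1 peak in any list.

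Of 24 imprinted genes found in the annotation, 12 had a shared site. A site near Trappc9 had CTCF of 11.4 in thymocytes and 11.8 in skin, and Airn, a noncoding RNA that silences Igf2r, held one with 9.22 and 11.6. Plagl1, a zinc finger factor gene, had one with 9.11 and 9.05 and Grb10, a growth factor receptor adaptor gene, one with 9.08 and 7.38. By H19, singled out after its values were seen because the control region upstream of it is a known CTCF insulator, there was 1 shared site, at chr7:149767653-149768004, with 6.68 and 4.28, upstream of the gene.

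The Hox clusters, which pattern the body axis, had 14 distinct shared sites at 24 of 39 genes, beside 1 thymocyte-only and 10 skin-only sites. The strongest lay 53 bp from a start of Hoxa7 with CTCF of 15.5 in thymocytes and 14.1 in skin. Another lay in an intron of Hoxa3 with 12.5 and 12.8, and sites at Hoxb5 and between Hoxd13 and Hoxd12 had 11.0 and 11.0 and 10.1 and 10.8. Per Mb the clusters had 27.0 shared sites, against 10.1 at all protein-coding genes. Of 25 housekeeping genes, 18 had a shared site, or 27.9 per Mb. The highest were at the starts of Rplp0, a ribosomal protein gene (20.5 and 9.18), and Actb, the cytoskeletal actin (16.0 and 11.4), then at the Flt3l start by Rpl13a (13.0 and 10.8) and in an intron of Sdha (11.6 and 9.64).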

How the data were processed

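Peak lists of 11 samples were analysed, grouped by the labels. The authors aligned to NCBI37/mm9 using Bowtie2 2.3.1, and MACS2 2.2.7 (q-value 0.01) gave peaks for each sample on its own. In the deposited lists, fold enrichment is a ratio, summit signal over local background, computed by the authors' peak caller and not scaled between samples. The deposited −log10 p-values and −log10 q-values refer to each list alone, and the deposited display score was not used. The deposited summit position, in bp from the peak start, was used to place sites. No counts are given, so no counting interval can be made.

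Python 3.11.15 with numpy 2.4.6 and scipy 1.17.1 was used for overlaps (at least 1 bp), motif searches and tests, and matplotlib 3.10.9 for plots. The genome was NCBIM37 and the annotation GENCODE vM1, in which 162 of 163 listed genes were found, some by an older symbol. Percentages were compared over SATB1 lists with exact two-sided permutation tests, adjusted over 3 comparisons. The functions were checked on simulated data. Sites named are the 10 with the highest geometric mean of both CTCF enrichments, the 5 each with the highest urea or standard SATB1 enrichment in both replicates, all outside regions called in every list, and up to 4 per gene list by geometric mean, save those said to be singled out and those on chromosome 18, which are left unnamed. The sites and lists were chosen with earlier results of these data known. The alternatives were other overlap rules, a −log10 q of at least 5, equal CTCF list sizes, bins of CTCF enrichment, each replicate left out, pairing of replicate numbers, and other windows. Satb1-deficient samples, inputs and the second thymocyte CTCF sample were not used here.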

Additional observations from a re-analysis of the deposited data

How the results depend on the processing

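The number of shared sites, 16887 in the main setting, was 13378 with an overlap of 50% of both CTCF peaks. It was 14006 with the skin list cut to the size of the thymocyte list. Under other overlap rules, thresholds and list sizes the mean standard SATB1 share lay between 36.7% and 40.7%. The difference between standard and urea SATB1 lay between 35.7 and 39.55 percentage points. The share with thymocyte urea SATB1 was 1.11% with an overlap of 50% of both CTCF peaks, 1.36% with the skin list cut to the size of the thymocyte list, 0.939% without regions called in all 11 lists and 0.93% when the centre of the CTCF site had to lie inside the urea peak. The difference between shared and thymocyte-only sites, 1.02 percentage points in the main setting, moved both ways. It was 3.42 with an overlap of 50% of both CTCF peaks and 3.91 with the skin list cut to size (exact sign-flip p = 0.5 and 0.125). It reversed to -5.70 percentage points within bins of thymocyte enrichment, where sites of equal CTCF enrichment are compared. When each list was left out in turn it ranged from -0.404 to 1.96, the lowest without standard replicate 1. Leaving out lists gave 23.5% to 53.6% for the standard share, 1.21% to 1.27% for the urea share, 22.2 to 52.4 percentage points for standard minus urea, and 4.14 to 17.6 for shared minus skin-only sites, lowest without standard replicate 1. With the replicate numbers as a block, standard minus urea was again 37.3 percentage points (exact p = 0.5, the smallest that 2 pairs allow). Numbers are shared by label only, and with 2 lists per group no pairing could be checked. As values added after the data were seen, shared minus skin-only sites was 26.1 over the standard lists and 0.433 over the urea lists, and shared minus thymocyte-only sites 1.74 and 0.298.

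The share on a BUR was 1.25% when the centre of the site had to lie in the BUR. The share near a start was 8.34% within 500 bp, 26.2% within 5 kb and 15.4% with all transcripts, the motif share 41.3% within 50 bp and 57.3% without the last letter, and the distance to the nearest shared site on either side 18.9 kb. With 1 CTCF list per tissue used and no depths, a site missing from a list cannot be told apart from one below detection.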
